A study of Mus musculus with 4 samples.

Results

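The genes described here are 35 genes of the interferon response and of antigen presentation by the major histocompatibility complex (MHC), out of 37996 features in a mouse RNA-seq comparison of fetal liver with adult bone marrow. Chosen by name, they fall into 4 interferon receptor chains, 4 transcription factors, 14 interferon-induced effectors, 9 genes of MHC class I and its peptide loading, and 4 genes of MHC class II. RNA came from FACS-sorted C57BL/6 cells of fetal liver (n = 2 libraries) or of adult bone marrow (n = 2 libraries), and cDNA was made with a SMARTer low-input kit. The series is concerned with the niche of blood stem cells in the fetal liver, but the labels give no sort markers, ages or number of animals. Because the 2 libraries of a group may share an animal, p-values reflect the spread among these libraries alone, and that spread may be technical.

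Interferons bind paired receptor chains at the cell surface and signal through JAK kinases to STAT and IRF transcription factors. These switch on effector genes that block viral entry, translation and replication. A DNA element called ISRE serves the type I response, and an element called GAS serves the response to interferon gamma. MHC class I molecules are made by nearly all nucleated cells and pair with beta-2-microglobulin, whereas MHC class II molecules are made mainly by B cells, dendritic cells and macrophages. Both interferon types raise MHC class I expression, and interferon gamma also induces class II in many other cells.

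Gene names in the deposited table do not stand beside their own values, because the names were closed up over 4531 features that have none, which left the blank labels at its end while the values kept their places. Each name was therefore placed again, and a member counts as measured only where its place was found with a posterior probability of at least 0.95. That held for 27 of the 35 members. The members Irf1, Stat2, Ifit1, Gbp3, H2-D1, H2-T23, H2-Ab1 and H2-Eb1 could not be placed and have no value here. The authors' group means were split back into whole reads of their 2 libraries, which are called deeper and shallower because the values do not tie them to a replicate number. The deeper and shallower fetal liver libraries held 2546089 and 868246 reads on the features solved, and those of adult bone marrow held 858720 and 223361 reads. Levels are given as reads scaled by the authors' size factors (normalized reads), on which 1 read was worth 0.379 and 1.19 in the deeper and shallower fetal liver library, against 0.676 and 2.86 in those of adult bone marrow. Across the 16501 features that averaged 10 or more, the median absolute log2 difference between libraries of the same group was 0.50 in fetal liver and 0.52 in adult bone marrow.

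In the authors' deposited table, no member reached an adjusted p under 0.05 in either direction. Over all 35605 tested features, 4.12% were called higher in fetal liver and 0.129% were called lower. The absence of a call covers the 8 members without a place too: names keep their order, the first name of a member stands at position 2423, and the called features end at position 1513. At an unadjusted p under 0.05, 2 placed members, Ifi44 and Nlrc5, were lower in fetal liver and 0 were higher, against 2.4% and 8.69% of all tested features. A limma fit on the recovered reads of features averaging 10 or more, adjusted after Benjamini and Hochberg, called B2m higher and Ciita lower among 24 members tested; it called 19.2% of 16501 features higher and 2.87% lower. With 2 libraries a group, an exact two-sided permutation test of a single gene cannot go below p = 0.333, and a p that misses the threshold does not show equal levels.

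The placed members split by role, and the roles also differed in level. Over all features the ratio moved with level, as given below. All 4 receptor chains and B2m had the higher mean in fetal liver, whereas 10 of 12 effectors, 6 of 7 class I genes and both class II genes had the lower mean there. In all, 20 of 27 placed members had the lower mean in fetal liver, as did 58.5% of all tested features and 55.6% of 11235 placed protein-coding genes past the first 2000 names, a count that leaves out the top of the table, where nearly all called features are higher in fetal liver. For 18 members no library of one group lay within the range of the other, with fetal liver lower for 14 and higher for 4, against 27.3% and 21.3% of all tested features. The median log2 ratio of fetal liver over adult bone marrow, with 1 added to each mean, was -0.91 over the placed members and -0.28 over all tested features. In bulk samples, fewer cells that express a gene and less RNA of it per cell cannot be told apart.

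**Figure D1:**
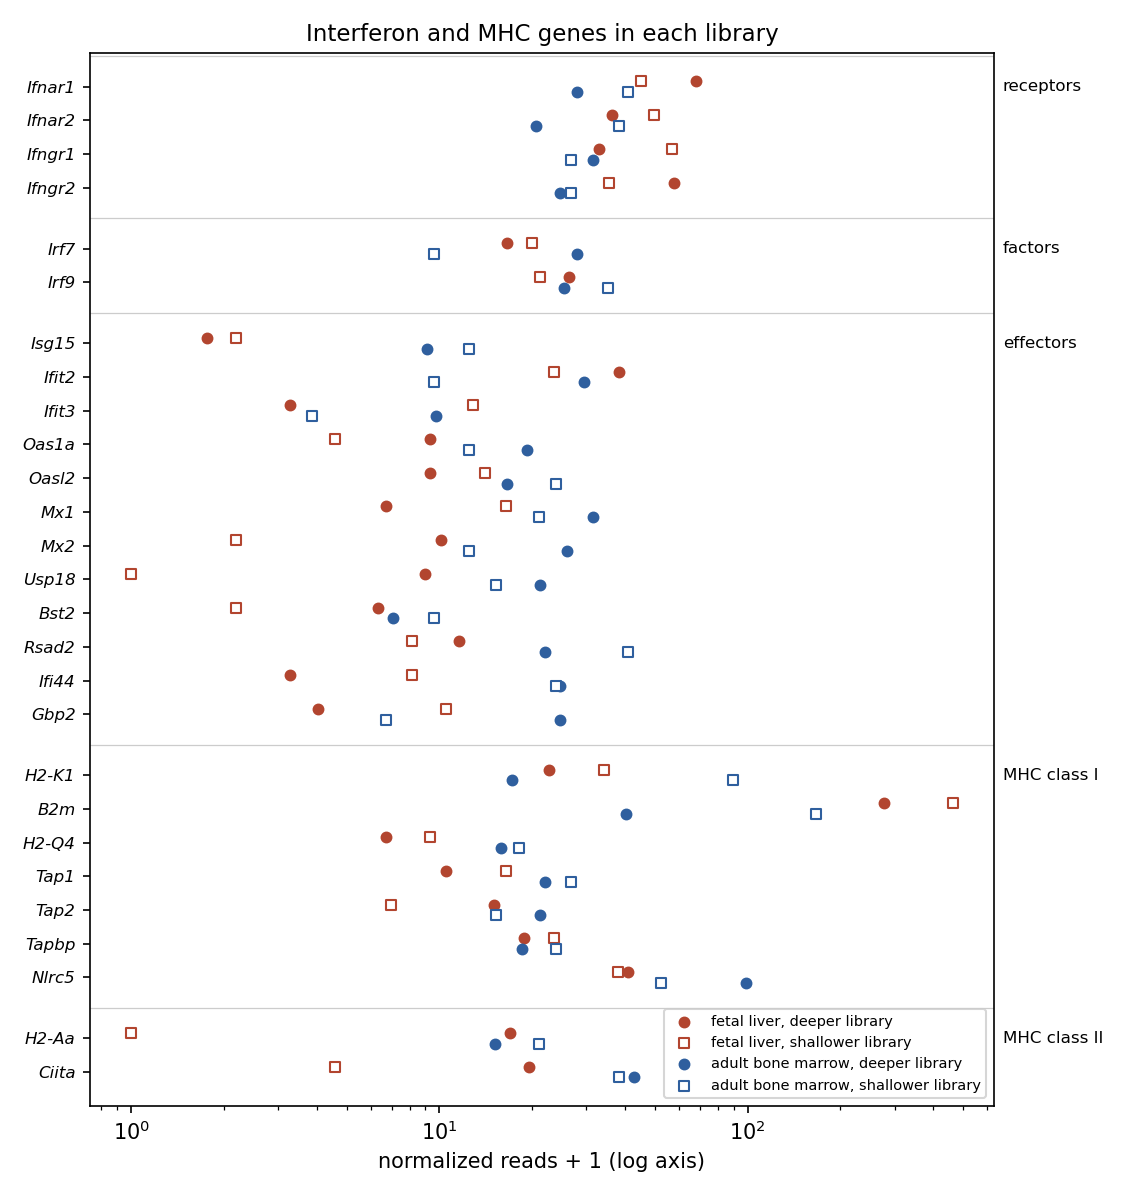
Normalized reads plus 1 (log axis) of each placed member in each library, with fetal liver above adult bone marrow in every row; circles are the deeper and squares the shallower library of a group. The receptor chains lie further right in fetal liver, most effectors lie further right in adult bone marrow, and Usp18 and H2-Aa stand at 0 in the shallower fetal liver library.

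Levels in these libraries have to be read against how the ratio moved with level over all features. Among 9531 features with a mean of 5 to 20 normalized reads over both groups, 70.2% had the lower mean in fetal liver and the median log2 ratio was -0.54. Among 5698 features with a mean of 20 to 40, the share was 50.6% and the median -0.01. Among 4050 features with a mean of 40 to 80, the share was 28.2% and the median 0.64. The low-expressed features were thus mostly lower in fetal liver and the more highly expressed ones mostly higher. In the range of 5 to 20, where 16 placed members lay, 15 had the lower mean in fetal liver and their median log2 ratio was -1.10. The groups did not overlap, with fetal liver lower, for 12 of these 16 members, against 39.5% of the features in that range. Of the 27 placed members, 19 lay under the median ratio of features in their range of level, and 5 (Isg15, Usp18, Ifi44, Ciita and Nlrc5) lay under the 10th percentile of that range.

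**Figure D2:**
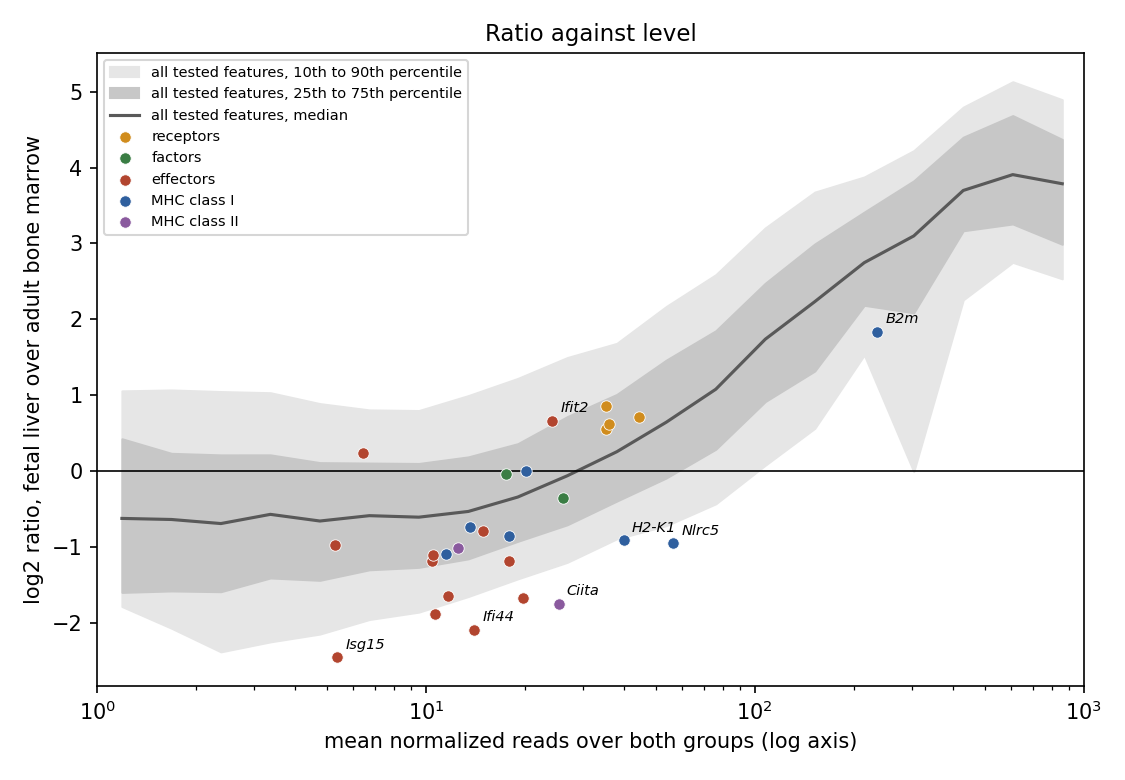
Log2 ratio of fetal liver over adult bone marrow against the mean normalized reads over both groups (log axis), with the median and percentile bands of all tested features in grey and the placed members as coloured points. The median of all features climbs with level from below 0 at low means to above 2 near B2m, and Isg15, Ifi44, Ciita and Nlrc5 lie at or under the lower edge of the wide band.

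Olfactory receptor genes, which encode odorant receptors of the nasal epithelium, were set beside the members as genes of an unrelated tissue. They were chosen for this after the values of the members had been seen. The score that placed names predicted level partly from the family of the gene name, olfactory receptors included. The values below are thus partly set by the placement and are no independent background. The 340 placed ones had a median of 2.30 normalized reads in fetal liver and 4.73 in adult bone marrow, and 72.9% had the lower mean in fetal liver. Their median log2 ratio was -0.73, and 90% of them lay above -2.30. Of the members, 1, Isg15, had a log2 ratio under that bound. Per kilobase of exon, 90% of the olfactory receptor genes lay under 2.12 normalized reads in fetal liver and under 4.35 in adult bone marrow. By that measure 19 of 27 members were above the level of these genes in fetal liver and 22 in adult bone marrow. At or under it were Isg15, Oasl2, Mx2, Usp18, Rsad2, Ifi44, H2-Aa and Ciita in fetal liver, and Ifit3, Oasl2, Ifi44, Tap1 and Ciita in adult bone marrow.

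The receptors come first in the pathway. Ifnar1 and Ifnar2 form the receptor of type I interferons, and Ifngr1 and Ifngr2 that of interferon gamma. Ifnar1 had 67.1 and 43.99 normalized reads in the deeper and shallower fetal liver library, against 27.0 and 40.03 in those of adult bone marrow. Ifnar2 had 35.2 and 48.8 in fetal liver, against 19.6 and 37.2 in adult bone marrow. Both chains were therefore present in every library, and only for Ifnar2 did the groups overlap. Ifngr1, the ligand-binding chain, had 31.8 and 55.9 normalized reads in fetal liver, against 30.4 and 25.7 in adult bone marrow. Ifngr2, the accessory chain, had 56.8 and 34.5 in fetal liver, against 23.6 and 25.7 in adult bone marrow. The lowest fetal liver library stood above the highest adult bone marrow library for both, by a narrow gap for Ifngr1.

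The log2 ratios of the receptor chains lay between 0.55 for Ifnar2 and 0.86 for Ifngr2. That of Ifnar1 was 0.71, and features in its range of level, a mean of 40 to 80, had a median of 0.64. Features with a mean of 20 to 40, the range of Ifnar2, Ifngr1 and Ifngr2, had a median of -0.01. The authors' deposited table gives folds of 1.66 for Ifnar1, 1.48 for Ifnar2, 1.56 for Ifngr1 and 1.85 for Ifngr2. None passed the threshold, since the authors' deposited table gives an adjusted p of 0.753 for Ifnar1, 0.978 for Ifnar2, 1 for Ifngr1 and 0.813 for Ifngr2. Per kilobase of exon, the 4 chains lay between 9.35 (Ifnar1) and 15.4 (Ifngr1) normalized reads in fetal liver, and between 5.64 (Ifnar1) and 9.86 (Ifngr1) in adult bone marrow. Summed over the chains, the receptors had 191 and 183 normalized reads in fetal liver, against 101 and 129 in adult bone marrow.

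Of the 4 transcription factors, only Irf7 and Irf9 were placed, and the groups overlapped for both. Irf7, which amplifies the type I response, had 15.5 and 19.0 normalized reads in fetal liver, against 27.0 and 8.58 in adult bone marrow. Irf9, a DNA-binding factor of the type I response, had 25.4 and 20.2 in fetal liver, against 24.3 and 34.3 in adult bone marrow. The fetal liver libraries of Irf7 lay between those of adult bone marrow. The log2 ratio was -0.04 ± 0.91 for Irf7 and -0.35 ± 0.33 for Irf9 (SD over the 4 pairs of 1 fetal liver and 1 adult bone marrow library, n = 2 libraries each). For Irf7 the sign depended on the library, since the log2 ratio was 0.93 without the deeper adult bone marrow library and 0.09 without the deeper fetal liver library.

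The effectors are the genes whose induction defines an interferon response. Promoters of 28 members were matched in the RefSeq table for GRCm38.p6, each 250 bases before and 50 after the start. The ISRE core GAAANNGAAA, searched on both strands, was found in 8 of 11 effector promoters and in 11 of 28 member promoters, against 3.49% of 27025 promoters of the same length. The GAS core TTCNNNGAA, whose reverse complement has the same letters, was found in 6 of 28 member promoters, against 8.47% of all promoters, and in that of Bst2 it overlaps an ISRE match. None of the 4 receptor promoters held the ISRE letters, and 2 of them, those of Ifnar1 and Ifnar2, held the GAS letters. A match of letters is a description and was not tested for binding. The 200 bases before the start are shown for Isg15 and Rsad2, effectors with lower means in fetal liver, and for B2m, the member with the highest ratio, with ISRE matches in capitals; Isg15 is on chr4:156200819-156201018 (minus strand), Rsad2 on chr12:26456453-26456652 (minus strand) and B2m on chr2:122147487-122147686 (plus strand), all in GRCm38.p6 and written 5′ to 3′ on the strand of the gene.
Isg15: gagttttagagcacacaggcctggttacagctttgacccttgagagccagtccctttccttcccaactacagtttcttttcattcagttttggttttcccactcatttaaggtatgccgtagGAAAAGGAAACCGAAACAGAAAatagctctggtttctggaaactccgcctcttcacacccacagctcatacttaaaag
Rsad2: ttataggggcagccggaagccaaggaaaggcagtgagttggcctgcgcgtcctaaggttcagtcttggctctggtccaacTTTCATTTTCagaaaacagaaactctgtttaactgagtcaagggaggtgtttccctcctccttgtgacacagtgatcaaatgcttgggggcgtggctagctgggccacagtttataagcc
B2m: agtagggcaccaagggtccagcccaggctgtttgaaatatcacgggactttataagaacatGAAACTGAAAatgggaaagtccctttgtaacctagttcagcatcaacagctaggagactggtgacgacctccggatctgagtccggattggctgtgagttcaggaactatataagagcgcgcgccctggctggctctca
The capitals in Isg15 are 3 overlapping matches, whereas Rsad2 and B2m hold 1 match each.

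Isg15, a ubiquitin-like protein that is joined to other proteins during an interferon response, had the lowest ratio of all placed members with 1 added to each mean. It had 0.758 and 1.19 normalized reads in the deeper and shallower fetal liver library, against 8.11 and 11.4 in those of adult bone marrow. These are 2 and 1 reads in fetal liver and 12 and 4 reads in adult bone marrow, so the groups did not overlap but the counts were small. The log2 ratio was -2.45 ± 0.32 (SD over the 4 pairs, n = 2 libraries each) with 1 added to each mean, but -3.20 with 0.1 added and -0.85 with 10 added, where Ciita was lowest at -1.23. For Isg15 the authors' deposited table gives a fold of 0.0996 with an adjusted p of 0.603. Usp18, the protease that removes ISG15 and dampens type I receptor signalling, had 7.96 and 0 normalized reads in fetal liver, against 20.3 and 14.3 in adult bone marrow. Its 0 in the shallower fetal liver library allows up to 3 reads, or 3.57 normalized reads, for counting error only. Fetal liver was the lower group in each library for both genes.

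Ifi44, an interferon-induced cytoplasmic protein, came closest to a call among the effectors. It had 2.27 and 7.13 normalized reads in fetal liver, against 23.6 and 22.9 in adult bone marrow. The adult bone marrow libraries were nearly equal, and both stood well above both fetal liver libraries. The log2 ratio was -2.09 ± 0.76 (SD over the 4 pairs, n = 2 libraries each). For Ifi44 the authors' deposited table gives p = 0.0140 and an adjusted p of 0.201. Limma gave an adjusted p of 0.0654, and 0.0196 without the shallower fetal liver library. Rsad2, which encodes the antiviral enzyme viperin, had 10.6 and 7.13 normalized reads in fetal liver, against 20.9 and 40.03 in adult bone marrow. Here too every fetal liver library stood under every adult bone marrow library, with a log2 ratio of -1.67 ± 0.60 and a limma adjusted p of 0.0711.

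Mx1 and Mx2 are dynamin-like antiviral GTPases and close paralogs; in C57BL/6 mice Mx1 carries a deletion that removes its activity. Mx1 had 5.68 and 15.5 normalized reads in fetal liver, against 30.4 and 20.02 in adult bone marrow. Mx2 had 9.09 and 1.19 in fetal liver, against 24.997 and 11.4 in adult bone marrow. Fetal liver was the lower group for both without overlap. The authors' deposited table gives p = 0.0570 and an adjusted p of 0.488 for Mx1, and p = 0.243 for Mx2. Without the deeper fetal liver library, limma called Mx2 (adjusted p = 0.0435) and Usp18 (adjusted p = 0.0193) lower, with the lone fetal liver library assumed to vary like the other group.

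The synthetases that activate RNase L and their relatives gave the same order. Oas1a, one such synthetase and a member of a family of near-identical genes, had 8.34 and 3.57 normalized reads in fetal liver, against 18.2 and 11.4 in adult bone marrow. Oasl2, a related protein with ubiquitin-like domains, had 8.34 and 13.1 in fetal liver, against 15.5 and 22.9 in adult bone marrow. The groups did not overlap for either, although Oasl2, at 1.68 normalized reads per kilobase in fetal liver and 3.01 in adult bone marrow, lay above the medians of olfactory receptor genes (0.773 and 1.497) but under their 90th percentiles in both groups. Bst2, which tethers budding virus to the cell surface, had 5.31 and 1.19 in fetal liver, against 6.08 and 8.58 in adult bone marrow. Gbp2, a GTPase induced by interferon gamma, had 3.03 and 9.51 in fetal liver, against 23.6 and 5.72 in adult bone marrow. The groups overlapped for Gbp2, and its log2 ratio was -1.11 with all libraries but 0.11 without the deeper adult bone marrow library.

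The Ifit genes, which encode proteins that bind foreign RNA, were the exception among the effectors. Ifit2 had 37.1 and 22.6 normalized reads in fetal liver, against 28.4 and 8.58 in adult bone marrow. Ifit3 had 2.27 and 11.9 in fetal liver, against 8.78 and 2.86 in adult bone marrow, the last being 1 read. The groups overlapped for both, and neither was near the threshold, with p = 0.776 for Ifit2 and 0.7003 for Ifit3 in the authors' deposited table. For Ifit3, which has a near-identical neighbour, the log2 ratio was 0.24 with all libraries and -1.06 without the shallower fetal liver library. Ifit2 was the effector with the highest mean level in fetal liver.

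Over the 12 placed effectors the median log2 ratio was -1.18, with a range of -2.45 to 0.66. Their summed level was 101 and 93.9 normalized reads in fetal liver, against 229 and 180 in adult bone marrow. The groups did not overlap for 9 of the 12, with fetal liver lower in each. Lower without overlap were 27.3% of all tested features and 39.5% of those averaging 5 to 20 normalized reads. No effector passed the authors' adjusted threshold, and limma called none of the 9 it tested with all libraries. Of all features it tested, limma called 19.2% higher and 2.87% lower.

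**Figure D3:**
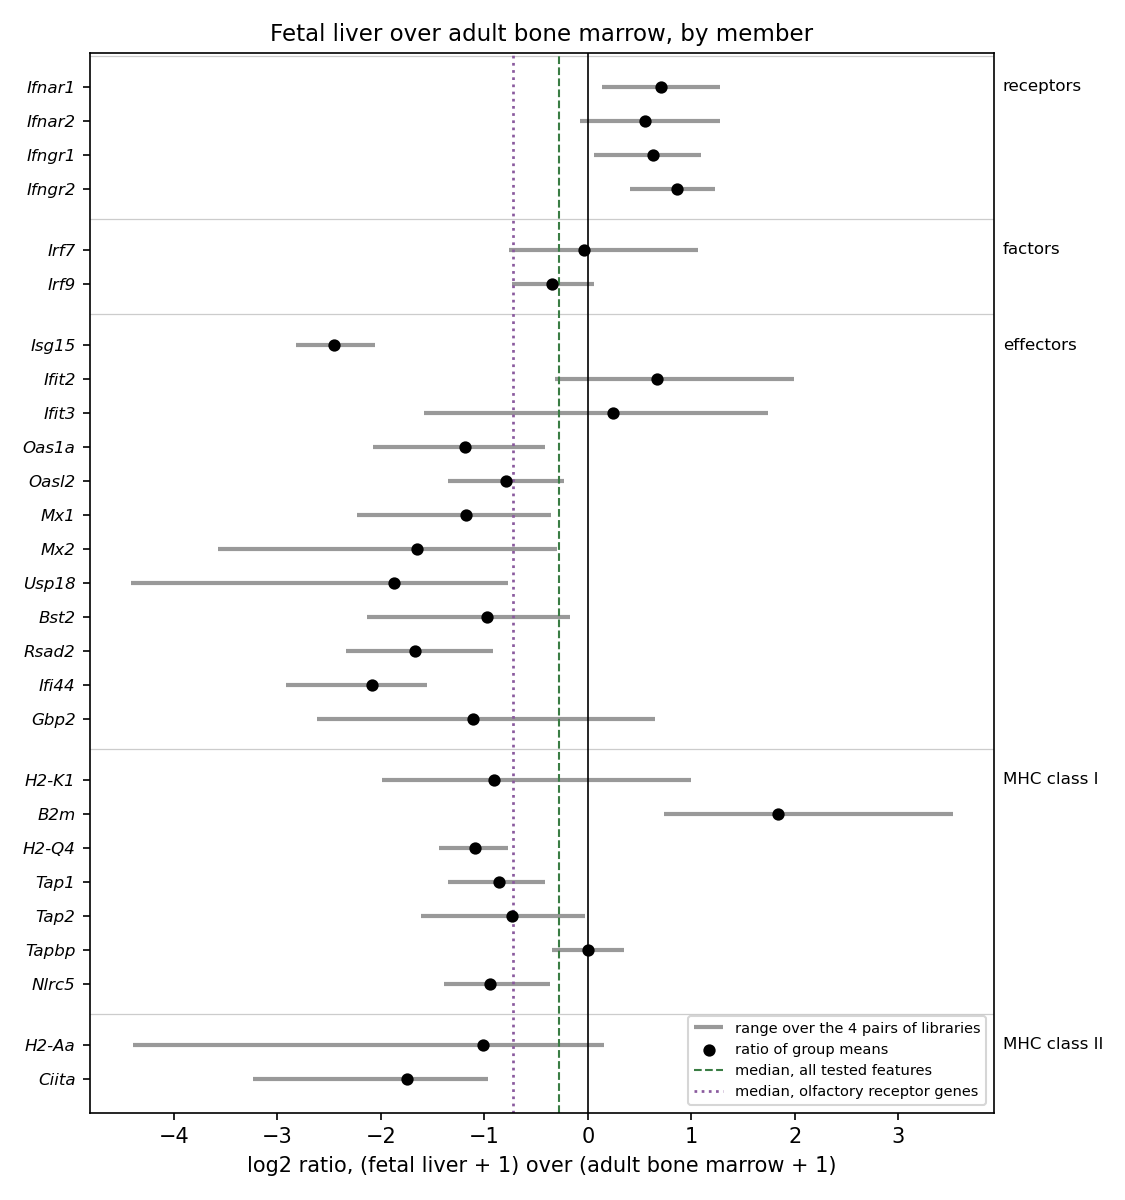
Log2 ratio of fetal liver over adult bone marrow for each placed member, with 1 added to each value; points are the ratio of group means and grey bars span the 4 pairs of 1 library from each group. The bars of Isg15, Ifi44, Rsad2, Usp18, H2-Q4 and Ciita lie wholly left of the median of olfactory receptor genes (dotted line, -0.73), and the bars of H2-K1, Ifit3, Gbp2 and Irf7 are among those that cross 0.

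Among the MHC class I genes, the chain shared by all class I molecules went the other way from most of the loading machinery. B2m, which encodes beta-2-microglobulin, was the member with the highest level. It had 277 and 461 normalized reads in the deeper and shallower fetal liver library, against 39.2 and 166 in those of adult bone marrow. The groups did not overlap, although as a ratio the adult bone marrow libraries differed from each other more than those of fetal liver did. The authors' deposited table gives a fold of 3.60 with p = 0.0568 and an adjusted p of 0.487. Limma gave a log2 fold of 2.13 with a standard error of 0.59 and an adjusted p of 0.0169. The fold was 9.42 without the shallower and 2.23 without the deeper adult bone marrow library, and the limma call was lost without the shallower fetal liver library. Features of the same level were higher still: among 179 features with a mean of 200 to 400, the median log2 ratio was 3.04, against 1.84 for B2m.

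H2-K1, the classical class I heavy chain of the K locus, had 21.6 and 33.3 normalized reads in fetal liver, against 16.2 and 88.6 in adult bone marrow. The fetal liver libraries lay between those of adult bone marrow. The log2 ratio was -0.91 ± 1.42 (SD over the 4 pairs, n = 2 libraries each) and depended on the adult bone marrow library left out. Without the shallower one it was 0.72. Without the deeper one it was -1.66, and limma called H2-K1 lower (adjusted p = 0.0110), with the lone library assumed to vary like the other group. H2-Q4, a non-classical class I gene, had 5.68 and 8.32 in fetal liver, against 14.9 and 17.2 in adult bone marrow. Its groups did not overlap, and the authors' deposited table gives an adjusted p of 1. Class I heavy chain genes resemble each other closely, so reads may have been shared among them in the authors' counting, and both values are uncertain for that reason.

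Tap1 and Tap2 form the pump that carries peptides into the endoplasmic reticulum, and Tapbp encodes tapasin, which links it to empty class I molecules. Tap1 had 9.47 and 15.5 normalized reads in fetal liver, against 20.9 and 25.7 in adult bone marrow. Tap2 had 14.02 and 5.95 in fetal liver, against 20.3 and 14.3 in adult bone marrow. The groups did not overlap for either, but for Tap2 the gap was smaller than the worth of 1 read. Tapbp had 17.8 and 22.6 in fetal liver, against 17.6 and 22.9 in adult bone marrow, and its log2 ratio was -0.00 ± 0.28 (SD over the 4 pairs, n = 2 libraries each). The authors' deposited table gives p = 0.328 for Tap1, 0.475 for Tap2 and 0.9701 for Tapbp.

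Nlrc5, the transactivator of class I genes, had 39.8 and 36.9 normalized reads in fetal liver, against 98.0 and 51.5 in adult bone marrow. The fetal liver libraries agreed closely and both stood under both adult bone marrow libraries. The authors' deposited table gives a fold of 0.513 with p = 0.0436 and an adjusted p of 0.416. The log2 ratio was -0.95 ± 0.53, whereas features with a mean of 40 to 80 had a median of 0.64. Without the deeper adult bone marrow library the ratio of Nlrc5 was -0.42, and without the shallower one it was -1.33. Thus the transactivator and most class I genes had the lower mean in fetal liver while B2m had the higher one.

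For MHC class II, Ciita encodes the transactivator that switches on class II genes, and H2-Aa the alpha chain of the class II molecule I-A. Ciita had 18.6 and 3.57 normalized reads in fetal liver, against 41.9 and 37.2 in adult bone marrow. Its groups did not overlap, but its levels of 1.16 normalized reads per kilobase in fetal liver and 4.15 in adult bone marrow were above the medians of olfactory receptor genes but under their 90th percentiles. The log2 ratio was -1.75 ± 1.22 (SD over the 4 pairs, n = 2 libraries each). The authors' deposited table gives a fold of 0.280 and an adjusted p of 0.885. Limma gave an adjusted p of 0.0319, which kept its call only when the deeper fetal liver library was left out (0.00155). H2-Aa had 15.9 and 0 normalized reads in fetal liver, against 14.2 and 20.02 in adult bone marrow. The deeper fetal liver library, with 42 reads, lay between the adult bone marrow libraries, and the 0 of the shallower one allows up to 3.57 normalized reads. The result for H2-Aa turned on these libraries: without the shallower fetal liver library the fold was 0.931, whereas without the deeper one, which leaves fetal liver at 0, limma called H2-Aa lower (adjusted p = 0.0203), with the lone library assumed to vary like the other group.

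Most placed markers of blood cells other than erythroid ones had the lower mean in fetal liver, as did H2-Aa and Ciita. The 40 markers were of B cells, dendritic cells, macrophages and monocytes, neutrophils, T and NK cells and leukocytes in general. Of these, 20 could be placed and 19 of the placed ones had the lower mean in fetal liver. So did 58.5% of all tested features and 70.2% of those averaging 5 to 20 normalized reads. The count leaves out Ebf1, called higher in fetal liver by the placement, and S100a9, called with its direction not settled. The called features, nearly all higher in fetal liver, hold no placed marker, which tilts the count toward lower means. The summed level of the placed markers was 198 and 218 normalized reads in fetal liver, against 461 and 303 in adult bone marrow. For dendritic cells and other antigen-presenting cells, 4 of 6 markers were placed, and their sum was 58.4 and 77.3 in fetal liver, against 145 and 123 in adult bone marrow. Flt3, a cytokine receptor of dendritic cell and early blood precursors, had 12.5 and 15.5 in fetal liver, against 33.1 and 42.9 in adult bone marrow. Zbtb46, a transcription factor of classical dendritic cells, had 37.1 and 36.9 in fetal liver, against 53.4 and 54.3 in adult bone marrow. Both markers were lower in each fetal liver library.

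For macrophages and monocytes, 4 of 10 markers were placed, and their sum was 27.7 and 21.4 normalized reads in fetal liver, against 57.4 and 31.5 in adult bone marrow. The top 2 were Mrc1, the mannose receptor, with means of 13.2 in fetal liver and 30.2 in adult bone marrow in the authors' deposited table, and C1qc, a complement component, with 5.17 in fetal liver and 6.16 in adult bone marrow there. C1qa and C1qb were at 0 in the shallower adult bone marrow library. Of 6 B cell markers, only Pax5 could be placed, with 14.02 and 8.32 in fetal liver, against 29.1 and 22.9 in adult bone marrow; Ebf1, which stromal cells also make, stood among the features called higher in fetal liver. The neutrophil markers Mpo and Camp had means of 15.3 and 3.57 in fetal liver, against 22.4 and 25.1 in adult bone marrow, in the authors' deposited table, while the name of S100a9, another neutrophil marker, lay among called features with its direction not settled, in a stretch where 45 of 47 were higher in fetal liver. Cd4 and Klrb1c had means of 16.1 and 13.96 in fetal liver, against 24.7 and 17.3 in adult bone marrow, in the authors' deposited table. The general leukocyte markers Laptm5 and Coro1a had means of 15.6 and 9.58 in fetal liver, against 20.5 and 16.01 in adult bone marrow, in the authors' deposited table. Placed markers stand past the called features, so none of them could pass the authors' adjusted threshold. By placement, of 39 markers with a name among the tested features, 1 (Ebf1) was called higher, 0 were called lower and 1 (S100a9) was open. For Ebf1, 1 of the 47 features in reach was lower, so its direction rests on the score that placed names. Over all tested features, 4.12% were called higher and 0.129% lower. The part of blood cells in the values of the members was not tested.

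**Figure D4:**
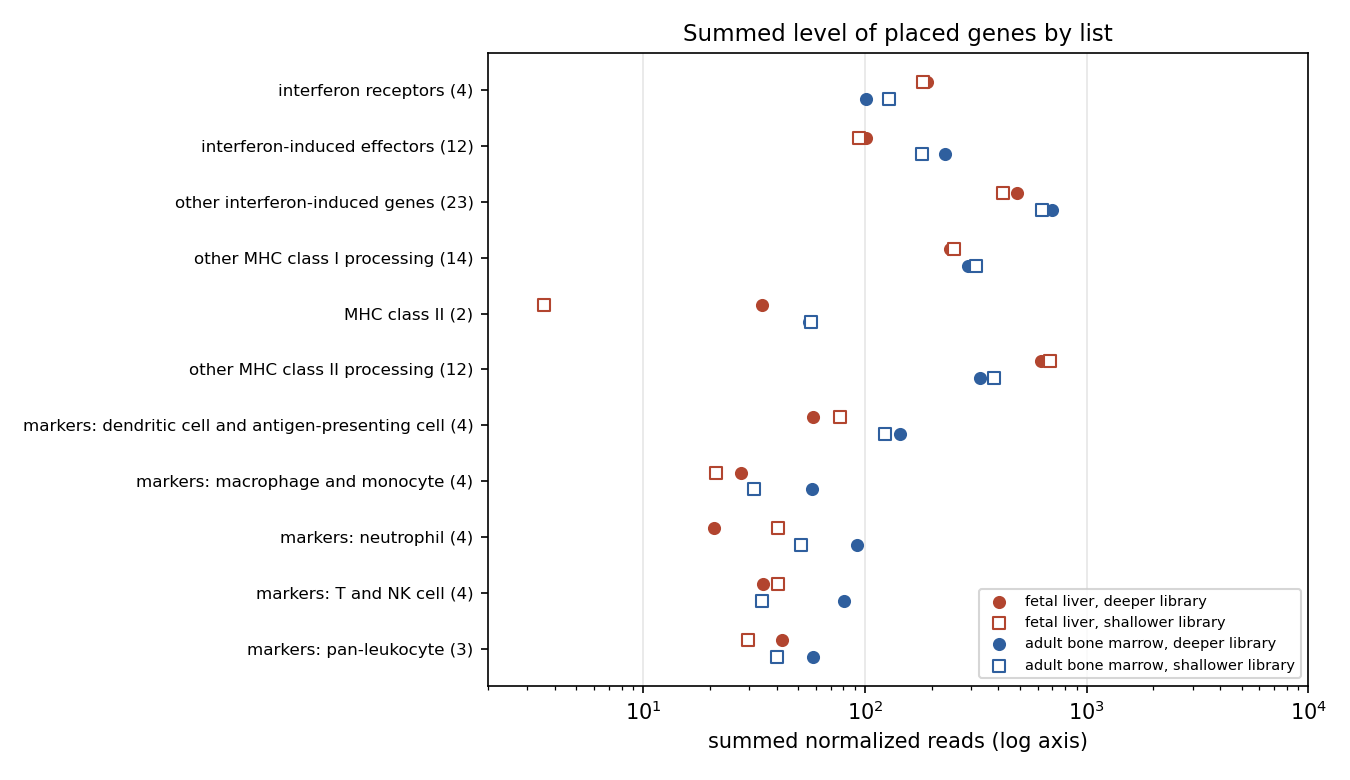
Summed normalized reads (log axis) of the placed genes of each list in each library, with fetal liver above adult bone marrow in every row and the number of placed genes in brackets; circles are the deeper and squares the shallower library of a group. Fetal liver lies left of adult bone marrow for the effectors and for dendritic cell markers, and right of it for the receptors and for the other class II processing genes.

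Several markers of tissue cells stood on the other side. The names of 3 of 6 hepatoblast markers (Alb, Afp and Apoa2) lay among features called higher in fetal liver. So did those of 3 of 6 pericyte markers (Pdgfrb, Rgs5 and Abcc9) and 2 of 5 mesenchymal stromal markers (Cxcl12 and Prrx1). The other markers of these lists and all 6 endothelial markers were not called. Over all tested features, 4.12% were called higher. Kcnj8, a potassium channel of pericytes, had 134 and 61.8 normalized reads in fetal liver, against 7.43 and 0 in adult bone marrow. Pdgfra, a receptor of mesenchymal cells, had 113 and 209 normalized reads in fetal liver, against 41.9 and 80.1 in adult bone marrow, and Nes, an intermediate filament of stromal progenitors, had 107 and 127 in fetal liver, against 59.5 and 77.2 in adult bone marrow. The third placed mesenchymal marker, Lepr, the leptin receptor, went the other way, with 29.2 and 15.5 in fetal liver, against 38.5 and 34.3 in adult bone marrow and no overlap. Of the endothelial markers none could be given a value. Among erythroid markers Hba-a1, an alpha globin, had 15.5 and 21.4 in fetal liver, against 4.05 and 0 in adult bone marrow, and Epor, the erythropoietin receptor, had 14.4 and 11.9, against 20.3 and 11.4.

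The rest of the pathway was read from 121 further genes. Of these, 116 had a name among the tested features and 66 could be placed. By the placement, 8 of the 116 were called higher in fetal liver and 0 were called lower. Over all tested features the shares were 4.12% and 0.129%. A further gene, Calr, was called with its direction not settled. The 8 were the interferon-induced Ifitm1, Ifitm2, Ifitm3 and Ly6e, the proteasome activator subunit Psme1, the endoplasmic reticulum chaperones Canx and Pdia3, and the constitutive proteasome subunit Psmb7. Each name lay within 46 places above its feature, in a stretch where all features were called and at least 45 of 47 were higher in fetal liver, so no single value is printed for them. For Ly6e, Pdia3 and Psmb7 all 47 features in reach were higher, so position alone gave the direction. For Ifitm1, Ifitm2, Ifitm3, Psme1 and Canx, 1 or 2 features in reach were lower, so their direction rests on the score that placed names. Ifitm proteins hold back viruses at the membrane and Ly6e is a membrane-anchored surface protein, while Canx and Pdia3 fold class I heavy chains among many other glycoproteins. They stood on the other side from most placed effectors, of which none was called.

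The other interferon-induced genes otherwise resembled the effectors. Of 23 placed ones, 19 had the lower mean in fetal liver and the groups did not overlap for 13, with fetal liver lower, and for 2 with fetal liver higher, against 27.3% and 21.3% of all tested features. Lower without overlap were 39.5% of features averaging 5 to 20 normalized reads and 28.6% of those averaging 20 to 40. Their median log2 ratio was -0.82. Their summed level was 487 and 419 normalized reads in fetal liver, against 699 and 629 in adult bone marrow. These counts, the median and the sum leave out Ifitm1, Ifitm2, Ifitm3 and Ly6e, which were called higher in fetal liver by the placement. The placed genes stand past the called features, so the authors' adjusted p could call none of them. Limma called 1 of the 18 it tested higher and 0 lower, against 19.2% and 2.87% of all features it tested. The gene called was Ifi27, which encodes a small interferon-induced mitochondrial protein. It had 49.6 and 48.8 normalized reads in fetal liver, against 12.2 and 11.4 in adult bone marrow, so the libraries of each group were nearly equal and the groups lay far apart. Its log2 ratio was 1.97, with p = 0.0136 in the authors' deposited table and a limma adjusted p of 0.00712.

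For the ligands, 2 of 11 genes were placed. Ifnb1, which encodes interferon beta, had 0 and 10.7 normalized reads in fetal liver, against 5.40 and 11.4 in adult bone marrow. Ifna2, an interferon alpha of a family of close paralogs, had 0 and 4.76 in fetal liver, against 1.35 and 14.3 in adult bone marrow. The groups overlapped for both. No ligand was called.

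In JAK-STAT signalling and its inhibitors, none of 14 genes passed the authors' adjusted threshold and 7 were placed. Pias1, a SUMO ligase that restrains interferon signalling, had 82.2 and 71.3 normalized reads in fetal liver, against 27.0 and 28.6 in adult bone marrow, with p = 0.0241 in the authors' deposited table. Irf8, a transcription factor of myeloid and dendritic cells, had 24.6 and 20.2 in fetal liver, against 57.4 and 60.05 in adult bone marrow, with p = 0.0652 in the authors' deposited table. The libraries of each group lay close together for both genes. Of the 7 genes it tested, limma called 1 higher, Pias1 (adjusted p = 0.0168), and 1 lower, Irf8 (adjusted p = 0.0291). Of all features it tested, it called 19.2% higher and 2.87% lower.

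Among the sensors of viral nucleic acid, 8 of 14 genes were placed. Of these, 7 had the lower mean in fetal liver, as did 58.5% of all tested features. None of the 14 was called, against 4.12% called higher and 0.129% called lower over all tested features. The groups did not overlap for 4 of the 8, with fetal liver lower. Lower without overlap were 27.3% of all tested features and 39.5% of those averaging 5 to 20 normalized reads. Trim25, a ubiquitin ligase of the RIG-I pathway, had 15.5 and 30.9 normalized reads in fetal liver, against 27.7 and 54.3 in adult bone marrow. Mavs, the adaptor of RIG-I on mitochondria, had 25.4 and 38.0 in fetal liver, against 27.7 and 28.6 in adult bone marrow. The groups overlapped for both.

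In class I processing, 14 of 23 further genes were placed, and 11 of these had the lower mean in fetal liver, as did 58.5% of all tested features. The groups did not overlap for 6 of the 14 with fetal liver lower and for 2 with fetal liver higher. Over all tested features these shares were 27.3% and 21.3%. Their summed level was 243 and 252 normalized reads in fetal liver, against 291 and 317 in adult bone marrow. The counts and the sum leave out Psme1, Canx and Pdia3, called higher in fetal liver by the placement, and Calr, called with its direction not settled. Limma called 1 of the 12 it tested higher and 0 lower, against 19.2% and 2.87% of all features it tested. The gene called was Psme2, a subunit of the interferon-induced proteasome activator. It had 40.2 and 51.1 in fetal liver, against 20.9 and 11.4 in adult bone marrow (limma adjusted p = 0.0379). Psmb8, another proteasome subunit, went the other way, with 1.52 and 3.57 in fetal liver, against 16.9 and 8.58 in adult bone marrow. Its groups did not overlap, and the authors' deposited table gives p = 0.0419 for it. Psmb8 averaged under 10 normalized reads, so limma did not test it.

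The further class II genes were divided. Of 12 placed ones, 8 had the higher mean in fetal liver and 4 the lower, and their sum was 620 and 684 normalized reads in fetal liver, against 330 and 380 in adult bone marrow. The 4 lower ones were the 3 placed H2-DM genes, whose products load peptides onto class II molecules, and Rfx5, a factor that binds class II promoters. H2-DMa had 4.55 and 3.57 in fetal liver, against 24.997 and 17.2 in adult bone marrow, with a log2 ratio of -2.13, p = 0.0274 in the authors' deposited table and a limma adjusted p of 0.0862. H2-DMb2 had 6.44 and 3.57 in fetal liver, against 11.5 and 8.58 in adult bone marrow. H2-DMb1 had 3.41 and 5.95 in fetal liver, against 6.76 and 5.72 in adult bone marrow. Rfx5 had 46.6 and 15.5 in fetal liver, against 49.3 and 54.3 in adult bone marrow. The groups overlapped for H2-DMb1 and for none of the other 3. The 8 higher ones were Ctsl, Ifi30, Creb1, Rfxap, Rfxank, Nfya, Nfyb and Nfyc, of which Ctsl and Nfya had the highest means. Ctsl, a lysosomal protease that also works outside antigen presentation, had 146 and 313 in fetal liver, against 21.6 and 57.2 in adult bone marrow, with p = 0.00821 in the authors' deposited table. Nfya, a widely expressed factor that binds class II promoters, had 81.1 and 51.1 in fetal liver, against 60.8 and 54.3 in adult bone marrow. Ctsl makes up a large part of that sum, and the groups overlapped for Nfya. By position, none of the 18 further class II genes, placed or not, passed the authors' adjusted threshold. Limma called 1 of the 10 it tested, Ctsl, higher (adjusted p = 0.00156) and 0 lower, against 19.2% and 2.87% of all features it tested.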

How the data were processed

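Per the submitters' processing notes, GSNAP, HTSeq, DESeq and the genome build mm9 were used; versions and annotation are not stated there. The deposited table holds, per the file headers, a normalized read signal (the authors' group mean of counts divided by DESeq size factors), the authors' fold (fetal liver over bone marrow, a ratio of means), and the authors' p-value and adjusted p-value. Of 37996 features, 35605 were tested and 2391 had no reads. A repeat of the Benjamini-Hochberg adjustment left all 35605 on the same side of 0.05.

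The 32237 names of tested features were placed with a hidden Markov model that keeps their order. It uses the order of gene identifiers where p-values are tied (allowed error 0.001). It also uses a LightGBM 4.6.0 score of level given gene structure (GENCODE M21), identifier number and family of the gene name. Identifier order within ties is an assumption; as deposited, 69.3% of 9126 adjacent names with equal p-values ascend. Single forms of the score disagreed for some names among the first 2000, where no p-values are tied, so the average over 4 settings was taken after members' values had been seen under single forms. In all, 47.5% of names were placed.

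Group means were resolved into whole reads of each library for 35580 of 35582 fetal liver means up to 10000 and 35585 of 35585 bone marrow means. Shallow libraries give coarse values, and floors of 3 reads cover counting error only. Folds on the log2 scale used a pseudocount of 1, which understates changes of low genes. limma 3.58.1 was fitted to log2 values of features averaging 10 or more; the scripts were tested on simulated data. The posterior, placement, filter, threshold, pseudocount, test and libraries were varied. Members and gene lists were chosen with earlier results of these data known. All 35 members are named; of other lists, every called gene, and the 2 placed genes of highest mean for markers and for lists with none called. Exceptions chosen after their values were seen are the olfactory receptor genes, C1qa, C1qb, Lepr, Ifi27, Psme2, Psmb8, Rfx5 and the class II genes other than Ctsl and Nfya.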

Additional observations from a re-analysis of the deposited data

How the results depend on the processing

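No member was called in either direction with p-values adjusted over features averaging 10 or more. The same held with names placed only from a posterior of 0.99 upward, at their most probable feature or as they stand in the deposited table, and at an adjusted p under 0.1. These last settings could not give a call. Names only move down, and at position 2423, where the first member name stands, the authors' adjusted p was already 0.189. Limma on recovered reads called 1 member higher and 1 lower, and leaving out 1 library at a time gave 0 to 1 higher and 1 to 4 lower. Over all features, where the authors called 1467 higher and 46 lower, limma called 3172 higher and 474 lower, with 2254 to 3413 higher and 196 to 687 lower when 1 library was left out; 83 were lower after adjustment over features averaging 10 or more, and 106 at an adjusted p under 0.1. The median log2 ratio of members was -0.91, and it was -0.42 with names as they stand in the deposited table, -0.57 with a pseudocount of 10, and -0.89 to -0.64 with 1 library left out. The count of members with the lower mean in fetal liver was 20 of 27, and 18 to 21 with 1 library left out, where 45.6% to 59.7% of all features were lower; this count was added after the data were seen. Log2 ratios of single members changed sign only for Irf7, Ifit3, Gbp2, H2-K1 and Tapbp when a library was left out, and for 0 of 27 under other pseudocounts, although adding 10 moved Isg15 to -0.85, Ifi44 to -1.18 and H2-Q4 to -0.61 and adding 0.1 moved Isg15 to -3.20; with names as they stand in the deposited table, 8 of 27 changed sign. No paired analysis was possible because the groups share only replicate number 2 and the values do not tie libraries to numbers. Depth limits these results: the median feature had 3 reads in the shallower adult bone marrow library.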
